A study of Mus musculus with 6 samples.

Results

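The 10 genes described here encode core subunits of the Polycomb repressive complexes, Ezh1, Ezh2, Eed, Suz12, Jarid2 and Mtf2 of Polycomb repressive complex 2 (PRC2) and Ring1, Rnf2, Pcgf6 and Cbx7 of Polycomb repressive complex 1 (PRC1). They were taken by name, as the rows of the deposited table whose Ensembl identifier, without its version, carries one of these mouse symbols. All 10 of 10 were found among the 43309 genes of the table, and all 10 passed the filter on low counts that left 16823 genes for testing. PRC2 places methyl groups on lysine 27 of histone H3, and PRC1 attaches ubiquitin to histone H2A. In embryonic stem cells these marks cover the promoters of many developmental regulators, which are kept at low expression while the cells are pluripotent. Most subunits exist as paralogs that take the same place in the complex, so that a cell can hold several versions of each complex.

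The data were fragment counts from 6 libraries made with the TruSeq Stranded mRNA kit, each from a separate line of mouse embryonic stem cells (mESCs), labelled with the strain J1 (129SV). The control group was 3 lines with the genotype Zbtb24 wild-type (2lox/+), and the other group was 3 lines with the genotype Zbtb24 knockout (1lox/1lox). The gene codes for a transcription factor with zinc fingers. In the usual notation, 2lox marks an allele flanked by loxP sites and 1lox what Cre leaves of it. All lines were grown in serum-containing medium on gelatin without feeder cells, and they are described as independently derived clones, so a difference between the groups is a difference between these 2 sets of 3 clones. The libraries held 26987179 to 27754105 counted fragments in the control group and 25042261 to 28838924 in the other. Zbtb24 itself (ENSMUSG00000019826, chromosome 10) had 510, 512 and 489 fragments in the control lines against 888, 925 and 1039 in the knockout-labelled lines, a log2 fold change of 0.99. The gene-level count thus went against the label, which exons the fragments came from was not tested, and these lines are called "knockout-labelled" throughout. All 10 markers of pluripotent stem cells that were looked up were found, at mean counts of 4262 to 33190. Of those 10 markers 9 were higher and 1 was lower in the knockout-labelled lines, by the test described below. Over all genes 34.4% were higher and 35.2% lower, and 77.8% of those averaging 200 counts or more passed it. The log2 fold changes of the 10 markers ran from -0.77 to 1.90, with a median of 0.31.

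In the knockout-labelled lines, 5 of the 10 core genes were higher than in the control lines, 0 were lower and 5 did not pass the test, judged by the quasi-likelihood test of edgeR with p-values adjusted (Benjamini-Hochberg) over all genes and a limit of 0.05. Over all genes, 69.5% passed this test, 34.4% higher and 35.2% lower, and among the 9802 genes averaging 200 counts or more, as all 10 core genes did, 77.8% passed. In such bulk samples less RNA per cell cannot be told apart from fewer cells that express a gene. The differences of the core genes were small. Rnf2 was 1.68-fold higher, and the other 9 genes had log2 fold changes between -0.04 and 0.23. The median absolute log2 fold change was 0.06 over the 10 core genes, against 0.34 over all genes tested and 0.22 over those averaging 200 counts or more. The median of the signed log2 fold changes was 0.04 over the core genes and -0.0004 over all genes tested. When a log2 fold change of 0.5 or more in size was required as well, 1 core gene was left, where this rule called 33.9% of all genes and 22.4% of those averaging 200 counts or more. All values of 1 group lay above all values of the other for 5 of the 10 core genes, the same 5 that passed the test, and for 71.5% of all genes.

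The lines of a group were very alike, with a coefficient of variation of 2.0% estimated over all genes, so that differences of a few percent could pass the test. When the variation between lines was fixed at a coefficient of 20% instead, only Rnf2 of the 10 core genes passed edgeR's exact test, where 25.8% of all genes did. DESeq2, which called 61.4% of all genes, called 4 core genes, all but Ring1 of the 5.

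Of the catalytic subunits of PRC2, Ezh2 passed the test and Ezh1 did not. Ezh2 (ENSMUSG00000029687, chromosome 6 of mm10, 47530139 to 47595341, minus strand) encodes the main methyltransferase of dividing cells. Its counts, scaled to library size in the usual CPM unit (cpm), were 142.0, 140.9 and 144.4 in control lines 1 to 3 and 162.7, 169.6 and 167.3 in knockout-labelled lines 1 to 3. Every knockout-labelled line lay above every control line, and the log2 fold change was 0.23 with a standard error of 0.03 (adjusted p = 3.13e-10, edgeR's quasi-likelihood test). Ezh1 (ENSMUSG00000006920, chromosome 11, 101191115 to 101226463, minus strand) encodes the methyltransferase paralog that is the more abundant of the pair in many resting tissues. It had 45.7, 45.8 and 46.9 cpm in the control lines against 47.0, 46.3 and 43.8 in the knockout-labelled lines. These ranges overlapped, and the log2 fold change of -0.02 had a 95% interval from -0.09 to 0.06 (adjusted p = 0.741, edgeR).

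Suz12 and Eed encode the subunits without which the enzyme has no activity, and the first of them passed the test. Suz12 (ENSMUSG00000017548, chromosome 11, 79993106 to 80034123, plus strand), the scaffold on which the complex assembles, had 432.5, 418.3 and 419.6 cpm in the control lines against 471.8, 469.6 and 483.2 in the knockout-labelled lines. The groups did not overlap, and Suz12 was 1.12-fold higher (log2 fold change 0.17, standard error 0.02, adjusted p = 2.60e-08, edgeR). Eed (ENSMUSG00000030619, chromosome 7, 89954654 to 89980983, minus strand), which binds trimethylated lysine 27 and stimulates the enzyme, had 201.5, 203.2 and 199.2 cpm in the control lines against 189.2, 196.0 and 202.9 in the knockout-labelled lines. Knockout-labelled line 3 was the highest of its group and lay within the control range. The log2 fold change of Eed was -0.04, with a 95% interval from -0.09 to 0.02 (adjusted p = 0.203, edgeR), and without this line it became -0.06 and passed the test (adjusted p = 0.034).

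The 2 members that help PRC2 to reach its sites on DNA differed little between the groups. Jarid2 (ENSMUSG00000038518, chromosome 13, 44729474 to 44921643, plus strand), a DNA-binding cofactor of the jumonji family, had 631.6, 603.7 and 599.7 cpm in the control lines against 604.3, 620.0 and 621.5 in the knockout-labelled lines. The ranges overlapped, and the 95% interval of its log2 fold change ran from -0.04 to 0.06 (adjusted p = 0.764, edgeR). Mtf2 (ENSMUSG00000029267, chromosome 5, 108065674 to 108109004, plus strand), a Polycomb-like protein that binds unmethylated CpG-rich DNA, had 378.3, 363.0 and 353.4 cpm in the control lines against 385.1, 385.4 and 387.3 in the knockout-labelled lines. The knockout-labelled lines lay above the control lines by a narrow margin, a log2 fold change of 0.08 with a standard error of 0.02 (adjusted p = 0.00348, edgeR). The call for Mtf2 was lost without control line 3 (adjusted p = 0.082) and when libraries were scaled by their totals alone (adjusted p = 0.227).

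Rnf2 (ENSMUSG00000026484, chromosome 1, 151458004 to 151500955, minus strand) stood apart in size from the other 9 core genes. It encodes RING1B, the main H2A ubiquitin ligase of PRC1 in embryonic stem cells. Its values were 138.5, 133.3 and 131.5 cpm in the control lines against 219.6, 226.7 and 230.1 in the knockout-labelled lines. The lowest knockout-labelled line was far above the highest control line, and the log2 fold change was 0.75 with a standard error of 0.03 (adjusted p = 9.53e-29, edgeR). Leaving out each library in turn kept it between 0.73 and 0.77. Ring1 (ENSMUSG00000024325, chromosome 17, 34020792 to 34024680, minus strand) encodes RING1A, the other ligase. It was the lowest of the 10 genes, with 7.78, 8.59 and 8.34 cpm in the control lines against 9.30, 9.46 and 10.1 in the knockout-labelled lines. Its log2 fold change of 0.23 had a standard error of 0.08 (adjusted p = 0.0103, edgeR), and the call was lost without control line 1 (adjusted p = 0.0556), without knockout-labelled line 3 (adjusted p = 0.0552) and in DESeq2 (adjusted p = 0.066).

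The log2 fold changes of the ligase genes were 0.75 for Rnf2, the largest of the core genes, and 0.23 for Ring1. The 250 bases before the RefSeq start of each gene are printed for this contrast. They are given 5′ to 3′ on the minus strand of GRCm38.p6, from chr1:151500992-151501241 for Rnf2 and chr17:34024681-34024930 for Ring1, and capitals mark each CpG dinucleotide.
Rnf2: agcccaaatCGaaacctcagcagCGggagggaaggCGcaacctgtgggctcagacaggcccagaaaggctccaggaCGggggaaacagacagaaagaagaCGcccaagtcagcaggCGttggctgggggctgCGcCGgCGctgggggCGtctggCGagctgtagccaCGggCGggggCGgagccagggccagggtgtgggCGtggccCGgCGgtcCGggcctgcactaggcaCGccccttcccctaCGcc
Ring1: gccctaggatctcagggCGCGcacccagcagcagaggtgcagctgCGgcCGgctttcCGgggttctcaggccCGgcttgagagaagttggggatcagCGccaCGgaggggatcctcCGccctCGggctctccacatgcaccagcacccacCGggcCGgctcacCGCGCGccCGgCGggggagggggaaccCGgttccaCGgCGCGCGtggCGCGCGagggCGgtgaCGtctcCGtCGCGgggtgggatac
These stretches hold 20 and 30 CpG dinucleotides, at a GC content of 70.4% and 73.6%. The RefSeq table gives windows of 300 bases, from 250 before to 50 after the start, and 12 windows matched the 10 core genes by symbol. Their median was 27 CpG dinucleotides, with a range of 2 to 41, against 7 over all 32851 windows. The letters CAGGACCT, a sequence that the zinc fingers of ZBTB24 are known to bind, were searched on both strands (AGGTCCTG on the other). They were in 0 of the 12 windows of the core genes and in 1.99% of all windows, which says only that these letters are not in these windows.

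The genes near Rnf2 differed in the same direction. Of the 50 other genes averaging 10 counts or more within 5 Mb on either side, 78.0% had a positive log2 fold change, and their median was 0.53. The centres of Trmt1l, Swt1 and Ivns1abp lie at -36.1, -81.4 and -125.0 kb from that of Rnf2, on the side of lower coordinates. These 3 neighbours, named after their values were seen, had log2 fold changes of 0.69, 1.06 and 0.80 and passed the test. Over the 980 tested genes of chromosome 1 averaging 10 counts or more the median was 0.50, and 27.4% of them had a log2 fold change above that of Rnf2. Around the other 9 core genes the median of the neighbours lay between -0.28 and 0.08. The part of the shift along chromosome 1 in the value of Rnf2 was not tested.

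**Figure D1:**
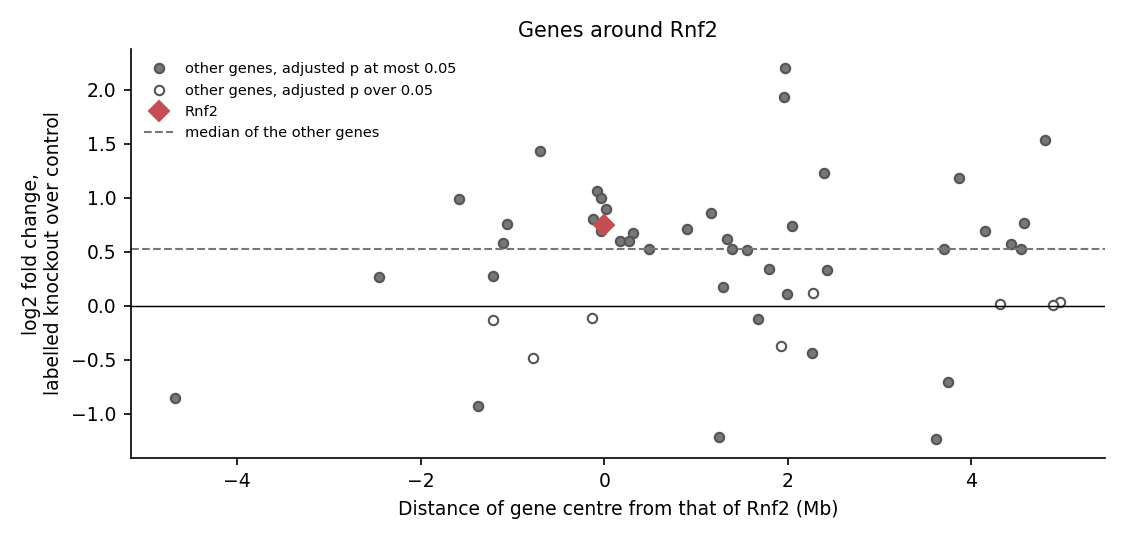
Log2 fold change (knockout-labelled over control, y axis) of genes averaging 10 counts or more against the distance of their centre from that of Rnf2 in Mb (x axis). Filled points passed an adjusted p of 0.05 and open points did not. Rnf2, at 0.75, lies among its neighbours, whose median (dashed line) is 0.53.

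The 5 genes whose pattern over the 6 libraries was closest to that of Rnf2 were Rnf219, Aamdc, Exo1, Klhl9 and Vcpip1. They were the nearest of 11114 genes averaging 100 counts or more by the Euclidean distance between log2(cpm + 1) values centred on the mean of the 6 libraries. Their distances were 0.04 to 0.06, where the median gene was at 0.89, and Exo1 and Vcpip1 also lie on chromosome 1. With 2 groups of very similar libraries, this measure mostly finds genes with a log2 fold change near that of Rnf2, and those of the 5 genes were 0.72 to 0.94.

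Of the remaining PRC1 members, neither passed the test. Pcgf6 (ENSMUSG00000025050, chromosome 19, 47033617 to 47050906, minus strand), the subunit that defines the variant complex PRC1.6, had 84.2, 86.0 and 86.2 cpm in the control lines against 84.3, 85.6 and 85.3 in the knockout-labelled lines. All 6 values lay within a few percent of each other, and the 95% interval of its log2 fold change was -0.07 to 0.05 (adjusted p = 0.855, edgeR). Cbx7 (ENSMUSG00000053411, chromosome 15, 79915807 to 79971119, minus strand), the chromodomain protein that brings canonical PRC1 to trimethylated lysine 27, had 228.7, 233.1 and 231.8 cpm in the control lines. The knockout-labelled lines had 227.8, 234.1 and 217.4 cpm, so the ranges overlapped, and the interval was -0.08 to 0.02 (adjusted p = 0.300, edgeR). For Eed and Cbx7 the call depended on the scaling, since with library totals alone both passed the test as lower (adjusted p = 0.00313 and 0.00724).

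Levels were compared between genes as FPKM, the cpm divided by the length of the longest annotated transcript in kilobases, and the 10 genes spanned a 29.4-fold range of mean level. In the control lines Eed and Suz12 were highest, at 97.4 ± 0.98 and 96.8 ± 1.79 (SD, n = 3), followed by Mtf2 at 89.9 ± 3.09 and Jarid2 at 73.2 ± 2.08. Ezh2 stood at 51.1 ± 0.64, Rnf2 at 42.0 ± 1.14, Cbx7 at 38.2 ± 0.38 and Pcgf6 at 30.2 ± 0.40. Ezh1 at 11.0 ± 0.15 and Ring1 at 3.23 ± 0.16 were lowest. In the knockout-labelled lines Rnf2 reached 70.4 ± 1.68 FPKM and so lay above Ezh2, at 59.8 ± 1.26, whereas in the control lines it lay below it. Per kilobase of coding sequence this change of order was absent, since Rnf2 lay above Ezh2 in the control lines too, at 133.4 against 63.6. Ordered by the mean of all 6 libraries, the ranges of Suz12 and Eed, Eed and Mtf2, Jarid2 and Rnf2, and Rnf2 and Ezh2 overlapped, and the other 5 neighbouring pairs did not. The order depends on the length used. Per kilobase of coding sequence Cbx7, which has a short coding part and a long transcript, was first at 304 and Eed was sixth, while Ezh1 and Ring1 were last under either length. Part of the transcript of Eed (12.6%), Mtf2 (9.75%) and Suz12 (4.12%) matched another gene, in that order E230029C05Rik, Tmed5 and Gm26563. The matches had at least 95% identity over at least 150 bases. Their strand was not tested, and the counting by the authors used the strand. The other 7 core genes had no stretch of 150 bases at 95% identity to a transcript of another gene.

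**Figure D2:**
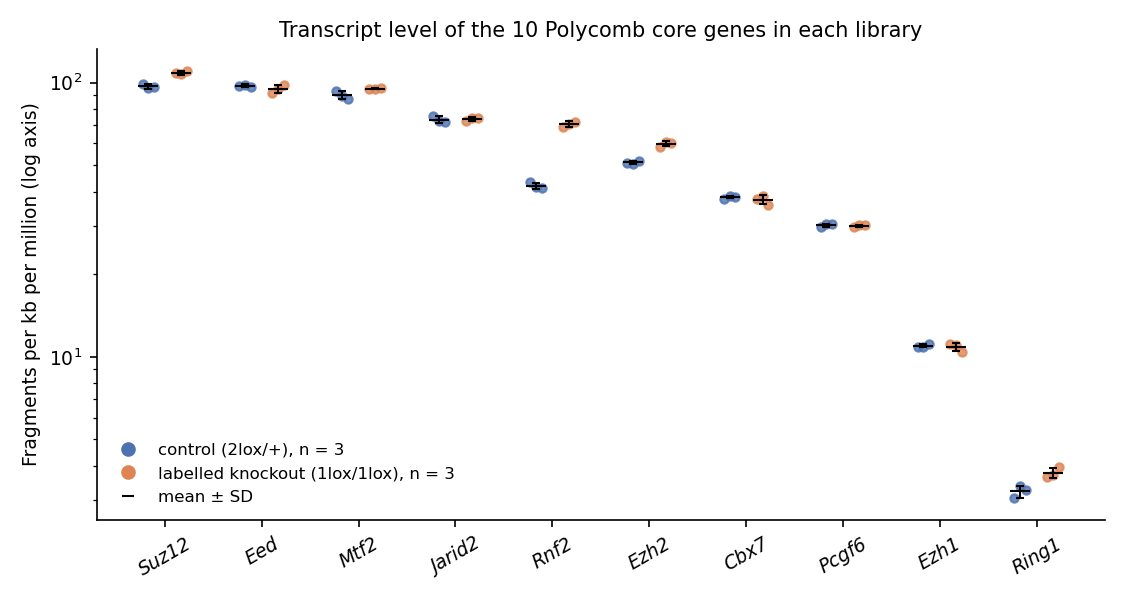
Level of each core gene in FPKM, cpm per kilobase of the longest transcript (y axis, log scale), with 1 point per library and the mean ± SD of each group (n = 3), ordered by the mean of all libraries. Rnf2 is the most displaced between the groups, and Ezh1 and Ring1 lie far below the rest.

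Because paralogs compete for the same place in a complex, the share of each paralog in the summed FPKM of its family was computed in every library. Differences of shares were tested with a two-sided exact permutation test over the 6 libraries, for which p = 0.1 is the smallest value that 3 against 3 allow, so none could pass 0.05. Ezh1 made up 17.6%, 17.7% and 17.7% of the Ezh pair in the control lines against 16.1%, 15.3% and 14.8% in the knockout-labelled lines, a difference of -2.28 percentage points (exact permutation p = 0.1). Rnf2 made up 92.9% ± 0.49 of the Ring pair in the control lines against 94.9% ± 0.12 in the knockout-labelled lines (SD, n = 3, exact permutation p = 0.1). The summed level of the Ring pair was 1.64-fold higher in the knockout-labelled lines, and that of the Ezh pair 1.14-fold. Mtf2 held 91.7% ± 0.36 and 95.2% ± 0.16 of the Polycomb-like family of Mtf2, Phf1 and Phf19 (SD, n = 3, exact permutation p = 0.1). Mtf2 itself differed little, and the larger difference was that of a paralog. Phf19, which also directs PRC2 to CpG-rich DNA, had 19.8 ± 1.23 cpm in the control lines against 8.37 ± 0.27 in the knockout-labelled lines, 2.36-fold lower (adjusted p = 8.33e-22, edgeR). Phf1, the remaining paralog, had a log2 fold change of -0.13 and did not pass the test (adjusted p = 0.127, edgeR).

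The Pcgf family, whose members decide which kind of PRC1 is formed, showed the widest shift of shares by transcript length. Pcgf2, which encodes MEL18 of canonical PRC1, made up 42.8% ± 0.09 of the family in the control lines and 55.0% ± 0.42 in the knockout-labelled lines (SD, n = 3, exact permutation p = 0.1). Its level was 101.2, 102.5 and 101.7 cpm in the control lines against 147.3, 156.6 and 149.7 in the knockout-labelled lines, so the groups lay far apart (log2 fold change 0.57, standard error 0.03, adjusted p = 4.17e-23, edgeR). Its close relative Bmi1 went the other way. Bmi1 had 9.73 ± 0.42 cpm in the control lines against 3.81 ± 0.22 in the knockout-labelled lines (SD, n = 3), 2.56-fold lower (adjusted p = 7.84e-18, edgeR), and its mean share was 2.83% and 0.96%. Pcgf5 was 1.83-fold lower and Pcgf3 had a log2 fold change of -0.22 (adjusted p = 4.94e-15 and 3.30e-08, edgeR), while Pcgf1 did not pass the test. The share of Pcgf6 was 31.5% ± 0.24 in the control lines and 27.2% ± 0.49 in the other group (SD, n = 3), a difference of -4.37 percentage points by transcript length (exact permutation p = 0.1) and of -1.11 by coding length. Its own level did not pass the test, and the summed level of the family was 1.16-fold higher by transcript length. The shares of the other Pcgf genes and this sum also depend on the length used. Pcgf3 has 723 coding bases in a transcript of 7708, and Pcgf2 has 1026 in 2485. Only the share of Pcgf6 was computed by coding length in this family.

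In the Cbx family, the chromodomain readers of canonical PRC1, Cbx7 made up 62.8% ± 0.47 of the summed level in the control lines against 65.9% ± 0.83 in the knockout-labelled lines (SD, n = 3, exact permutation p = 0.1). Of its paralogs, Cbx6 had a log2 fold change of -0.40 (adjusted p = 3.35e-13) and Cbx2 of -0.08 (adjusted p = 0.0494), whereas Cbx8, at 1.60 and 1.22 cpm, did not pass edgeR's test (adjusted p = 0.0733).

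**Figure D3:**
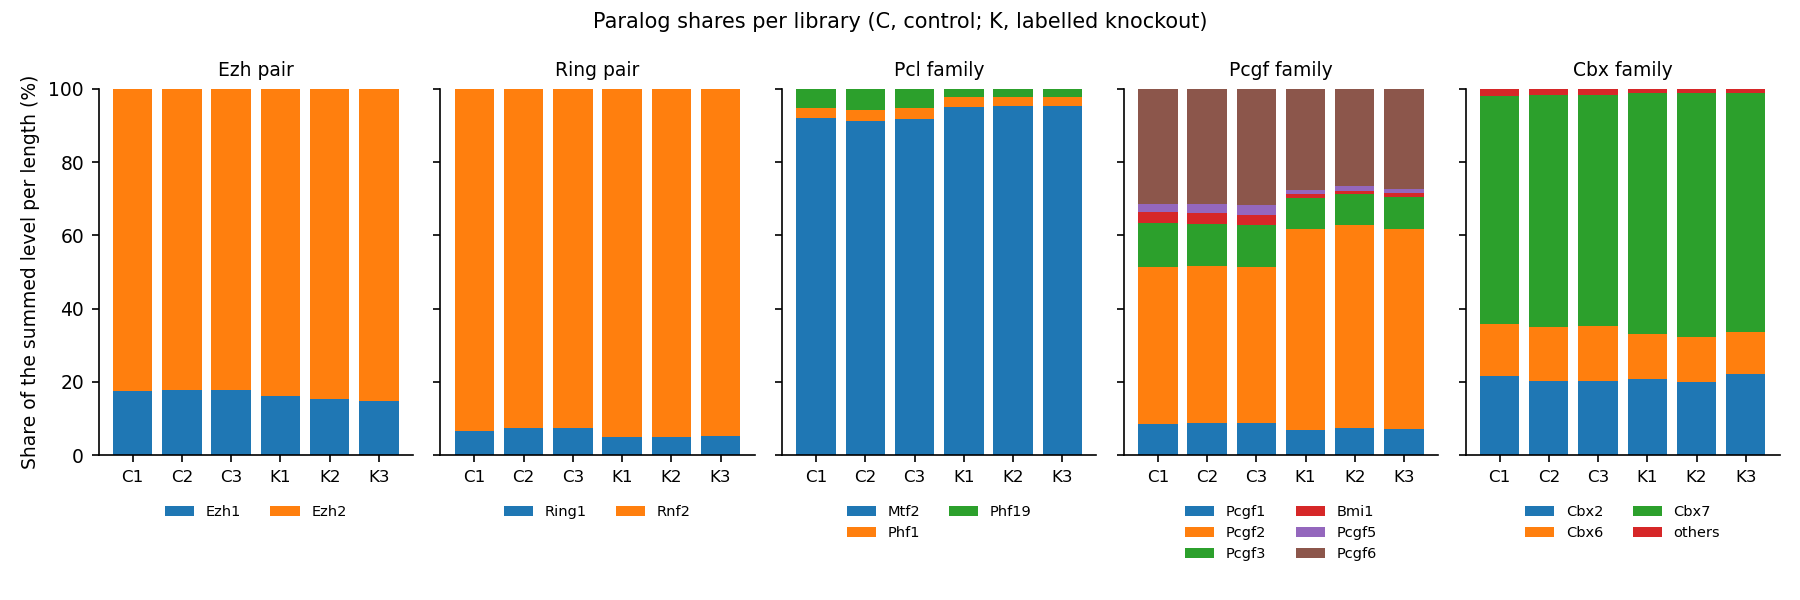
Share of each paralog in the summed FPKM of its family (y axis, percent), with the least abundant Cbx genes drawn together as others, 1 bar per library, with C1 to C3 for the control lines and K1 to K3 for the knockout-labelled lines. The widest change is that of Pcgf2, from 42.8% to 55.0% of the Pcgf family on average.

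The other genes of the pathway were counted from lists of partner genes. Of the 7 accessory genes of PRC2, 2 were higher, 3 were lower and 2 did not pass the test, with a median log2 fold change of -0.11. The share called was 71.4%, against 69.5% over all genes and 77.8% of those averaging 200 counts or more, as all 7 did. Aebp2, which stabilises the complex and lies on chromosome 6, was 1.33-fold higher (adjusted p = 8.80e-18, edgeR), in a stretch where the median of the neighbouring genes was 0.43. Epop, a PRC2 partner typical of stem cells, was 1.09-fold higher (adjusted p = 5.63e-05). Lcor, whose locus also encodes a PRC2-binding protein, was 1.42-fold lower (adjusted p = 1.73e-08), and the histone chaperone Rbbp4 was 1.08-fold lower (adjusted p = 1.38e-04). The part of that stretch in the value of Aebp2 was not tested.

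Of the 11 canonical PRC1 genes, 4 were higher, 5 were lower and 2 did not pass the test, with a median log2 fold change of -0.08. The share called was 81.8%, where 69.5% of all genes and 77.8% of those averaging 200 counts or more were called. Apart from Pcgf2, Bmi1 and the Cbx genes, Scml2, an X-linked PRC1-associated gene, was 2.43-fold higher, from 7.88 ± 1.34 to 19.1 ± 0.32 cpm (SD, n = 3, adjusted p = 1.44e-20, edgeR). Phc1, the main Polyhomeotic gene of stem cells, was 1.23-fold higher (adjusted p = 2.22e-16). Phc1 lies on chromosome 6 among neighbours whose median log2 fold change was 0.59, and the part of that stretch in its value was not tested. Scmh1 was 1.29-fold lower (adjusted p = 2.75e-08).

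Of the 20 genes of variant PRC1 complexes, 7 were higher, 9 were lower and 4 did not pass the test, with a median log2 fold change of -0.02. The share called, 80.0%, was near the 77.8% of all genes averaging 200 counts or more. Bcorl1, Dcaf7 and Fbrsl1 had the largest rises among genes averaging 100 counts or more, with log2 fold changes of 0.58, 0.47 and 0.42. Bcor, a partner of Pcgf1 and a homolog of Bcorl1, was 1.44-fold lower (adjusted p = 5.68e-19, edgeR). The genes of this list that act with Pcgf6 in PRC1.6 follow, of which all but Tfdp1 are named after their values were seen. Tfdp1, the dimer partner of E2F factors, fell from 351.1 ± 1.49 to 210.2 ± 1.83 cpm (SD, n = 3), a log2 fold change of -0.74 (adjusted p = 1.36e-30, edgeR). Tfdp1 lies near the start of chromosome 8, where its neighbours had a median of -0.59, and the part of that stretch was not tested. L3mbtl2, a histone-binding subunit, had a log2 fold change of -0.51 (adjusted p = 3.95e-23), Max and E2f6 had 0.17 and 0.19 (adjusted p = 2.20e-06 and 4.72e-04), and the scaffold gene Mga had 0.02 and did not pass edgeR's test (adjusted p = 0.498). Wdr5, at 0.24, and Cbx3, at -0.06, passed it (adjusted p = 1.39e-11 and 0.0301).

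Of the 10 genes for enzymes that remove the Polycomb marks and their partners, 4 were higher, 2 were lower and 4 did not pass the test, a share called of 60.0% against 69.5% over all genes. Kdm6b, a demethylase of lysine 27 of histone H3, had 53.6, 57.0 and 55.2 cpm in the control lines against 99.7, 98.2 and 98.8 in the knockout-labelled lines. The groups were far apart, and the log2 fold change was 0.84 with a standard error of 0.03 (adjusted p = 9.05e-28, edgeR). Its X-linked paralog Kdm6a had a log2 fold change of -0.17 (adjusted p = 9.96e-06). Among the genes of the H2A deubiquitinase complex, Foxk2 and Asxl1 were 1.33- and 1.26-fold higher and Foxk1 was 1.19-fold lower, while the catalytic subunit gene Bap1, named after its values were seen, did not pass the test.

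**Figure D4:**
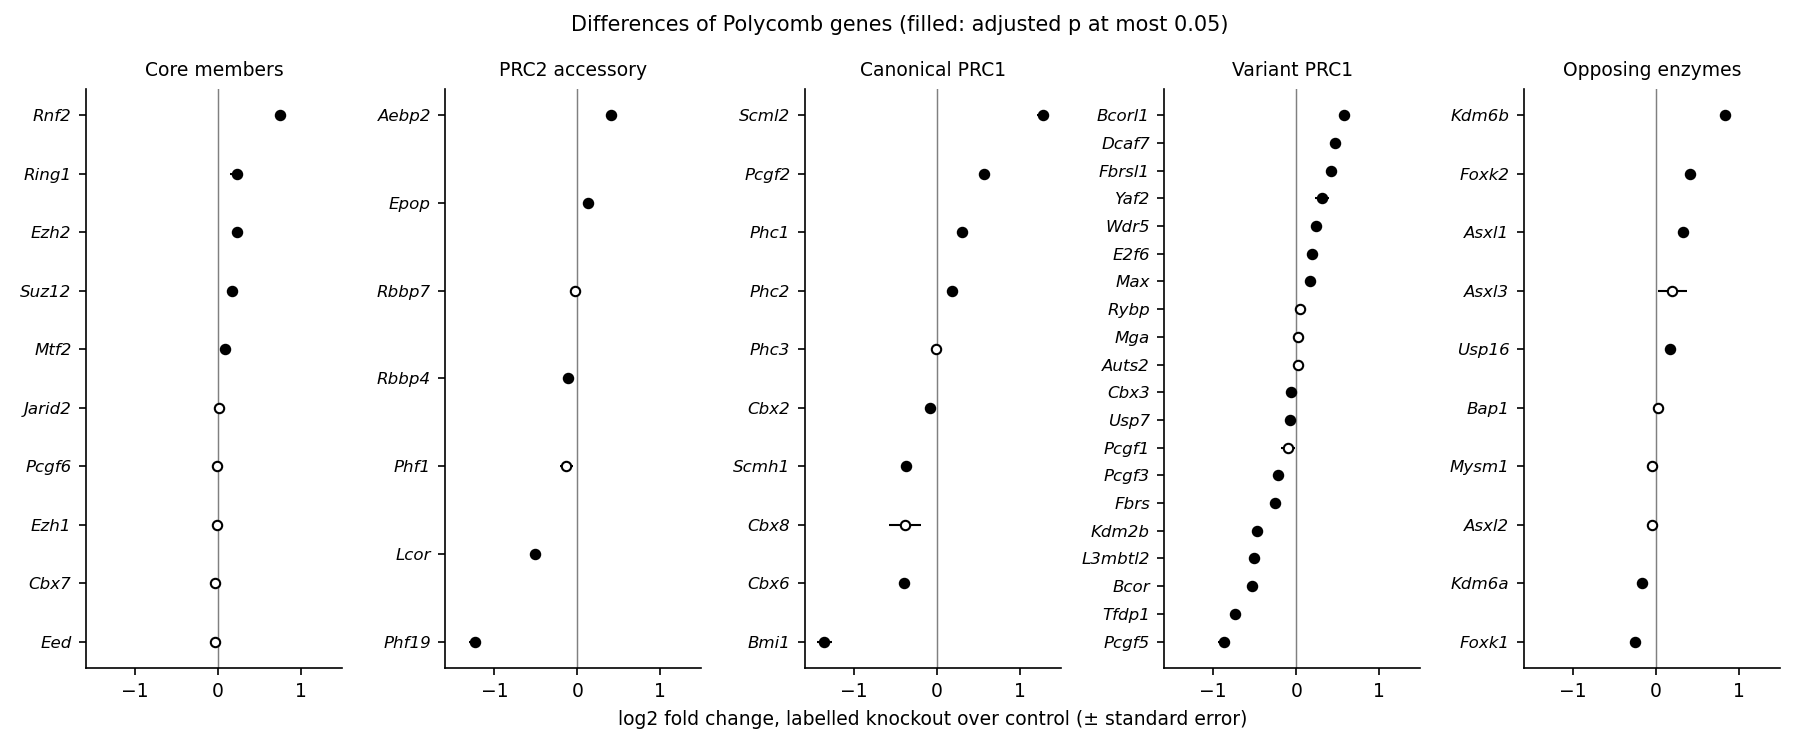
Log2 fold change of each gene (x axis, knockout-labelled over control, bars give the standard error) in the core set and in 4 lists of partner and opposing genes, with filled points for genes that passed the test at 0.05 and 1 canonical PRC1 gene not drawn. The core genes other than Rnf2 lie between -0.04 and 0.23, and the canonical PRC1 genes range from -1.35 for Bmi1 to 1.28 for Scml2.

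A list of 35 developmental genes known to be Polycomb targets in stem cells was also counted. Of these, 6 did not pass the filter on low counts. Of the 29 tested, 3 were higher, 17 were lower and 9 did not pass the test, a share called of 69.0%. Over all genes 69.5% were called, 34.4% higher and 35.2% lower. The median log2 fold change of the list was -0.69. It was the same when genes at 3 counts or fewer in every library of a group were set to their bound. The filter itself favours a difference in genes that passed it through 1 group alone. Of the 29 genes, 6 reached 10 counts in the control lines alone, 5 of them lower, and 2 in the knockout-labelled lines alone, 1 of them higher. Of the 21 genes that reached 10 counts in both groups, 2 were higher, 12 were lower and 7 did not pass, with a median of -0.51. With 10 counts required in 3 libraries, 17 genes of the list were called in place of 20. In total the list held 93.6 to 100.7 cpm in the control lines against 64.1 to 65.3 in the knockout-labelled lines, so the genes stayed at low levels in both groups. Hand1, a regulator of heart and trophoblast development, had 6.68, 7.35 and 8.09 cpm in the control lines against 0.84, 0.93 and 0.71 in the knockout-labelled lines, 8.90-fold lower (adjusted p = 1.87e-24, edgeR). Cdkn2b, an inhibitor of the cell cycle, was 4.33-fold lower, and the homeobox gene Msx2 was 2.94-fold lower (adjusted p = 1.19e-15 and 1.13e-12). The 3 genes that were higher were Olig2, Sox1 and Eomes. Olig2, a neural regulator, had 1 or 2 fragments in each control line against 269 to 313 in the knockout-labelled lines, with no fold given because the control counts are so few (adjusted p = 7.42e-33, edgeR). Eomes, a regulator of early mesoderm and endoderm, was 1.32-fold higher (adjusted p = 6.76e-04), and Sox1, a neural gene named after its values were seen, had a log2 fold change of 1.23 (adjusted p = 9.01e-08).

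Some markers of other cell types differed between the groups beside these targets. Over all genes 69.5% were called, 34.4% higher and 35.2% lower. The 6 fibroblast markers summed to 57.5 to 60.9 cpm in the control lines against 10.8 to 11.7 in the knockout-labelled lines. Most of the control sum was Col1a1, at a mean of 41.1 cpm against 3.93 in the knockout-labelled lines. Of the 6 markers, 5 were lower, a share called of 83.3%. Postn, which was lower, had 7, 8 and 11 counts in the control lines and 0 counts in every knockout-labelled library. Postn and Col3a1, also lower, passed the filter on low counts through the control lines alone, which itself favours a lower value in the other group. Of the 6 trophoblast markers 4 were lower and 1 was higher (83.3% called), at sums of 82.0 to 86.2 and 75.1 to 79.2 cpm. Most of this sum was Tfap2c, the marker that was higher, and the other 5 summed to 29.5 to 32.4 cpm in the control lines against 6.82 to 7.74 in the knockout-labelled lines. Of the 6 primitive endoderm markers 2 were lower and 1 was higher, at sums of 11.3 to 12.9 and 10.6 to 12.8 cpm. Sox17, an endoderm marker that was lower, had 16, 18 and 14 counts in the control lines against 4, 9 and 3. It too passed the filter through the control lines alone, as did the trophoblast marker Elf5, which did not pass the test. Hand1 and Cdx2 stand in both the target and the trophoblast list, and Gata4, Gata6 and Sox17 in both the target and the endoderm list. The part of these cell types in the lower counts of the targets was not tested.

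**Figure D5:**
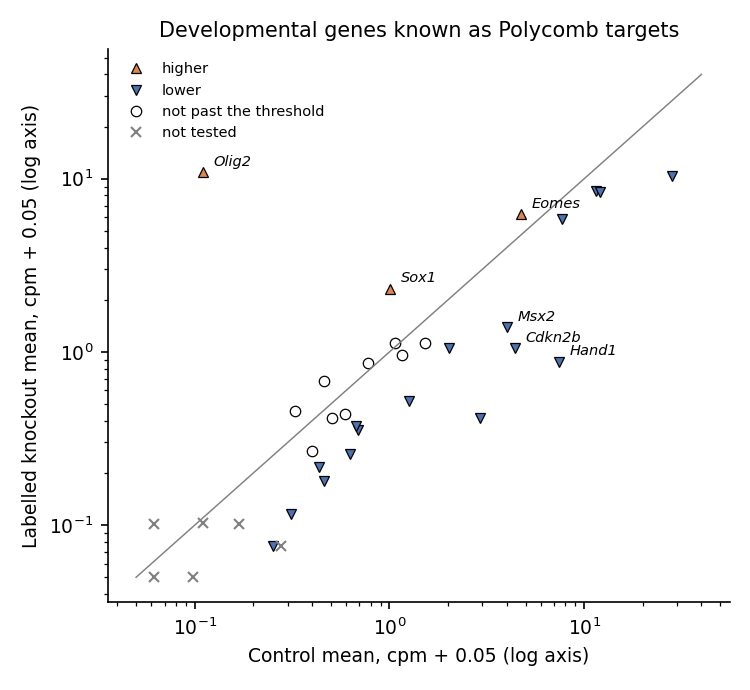
Mean level of 35 developmental genes in the control lines (x axis) and in the knockout-labelled lines (y axis), both as cpm plus 0.05 on log axes, with the line of equal levels. Of the genes tested, 17 passed the test below the line (triangles pointing down) and 3 above it, of which Olig2 lies farthest from the line.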

How the data were processed

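Libraries were prepared from 2 μg of total RNA with the TruSeq Stranded mRNA kit and 8 cycles of PCR. The authors removed rRNA reads with Bowtie2 (2.1.0), mapped the rest to mm10 with TopHat (2.0.10) and counted fragments per GENCODE Release M4 gene with HTSeq (0.6.1) using the strand, discarding fragments of multiple genes or locations. The deposited values are raw counts. Symbols and transcript lengths came from GENCODE Release M21 (same build, 42425 of 43309 genes matched by identifier). In M21, 0 exon bases of the core genes are shared with another gene on the same strand.

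Genes that reached 10 counts in 1 library or more were tested with edgeR 4.0.16 in R 4.3.3 (TMM, glmQLFit, glmQLFTest, no covariate, Benjamini-Hochberg adjustment over all genes tested). Standard errors are the log2 fold change divided by the square root of F. The test was checked on simulated counts with few or no changed genes and the same dispersion for every gene. That check does not cover data in which 69.5% of all genes are called. DESeq2 1.42.0, other tests, scalings, filters, a replicate block and leaving out each library were alternatives. Libraries within a group differed by more than counting noise (median squared difference 1.12 to 1.60 times that of sampling), so none was treated as another deposited again. Separate libraries of 1 line can also differ by more than counting noise, so this cannot show that the lines are separate. Each library comes from a line described as separate, and p-values measure the spread between these lines alone. No molecular identifiers were used, so counting error understates the noise of PCR reads.

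Named genes were the core genes, Zbtb24, the paralogs in the families but 1, the 3 largest rises and falls per list with a mean of at least 100 counts (50 for developmental targets), and the 5 genes closest in pattern to the core gene with the largest change. Col1a1, Postn, Col3a1, Tfap2c, Elf5 and Sox17 of the marker lists, and the genes so marked above, were named after their values were seen. The core genes, lists and tests were chosen with earlier results of these data known. Of the canonical PRC1 list, 1 gene entered the counts and sums but is not reported here by itself.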

Additional observations from a re-analysis of the deposited data

How the results depend on the processing

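The number of core genes called was 4 to 6 under the other tests, scalings and filters and 4 to 5 with each library left out in turn, and Rnf2 kept its direction and passed under all 16 settings that refitted the test. The number of all genes called was 11059 to 11304 with each library left out. Requiring a log2 fold change of 0.5 or more in size left 5696 of all genes, 1 core gene, 2 accessory PRC2 genes, 4 canonical PRC1 genes, 5 variant PRC1 genes and 1 opposing enzyme. Fixing the dispersion of every gene at 0.04 left 4342 of all genes, 1 core gene, 1 accessory PRC2 gene, 3 canonical and 2 variant PRC1 genes, 1 opposing enzyme and 13 developmental targets, fewer because a wider spread was imposed. Genes with log2 fold changes near 0 changed sign. Jarid2 was at -0.04 with library totals alone, and with libraries left out it ranged from -0.0073 to 0.0302, Ezh1 from -0.0361 to 0.0173 and Pcgf6 from -0.0197 to 0.0002.

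With coding length in place of transcript length, the change in share was 1.42 percentage points for Rnf2 and -1.11 for Pcgf6. With each library left out the change in share was -2.62 to -1.98 for Ezh1, 1.90 to 2.34 for Rnf2, 3.27 to 3.61 for Mtf2, -4.57 to -4.09 for Pcgf6 and 2.66 to 3.48 for Cbx7. The counts called in the lists were then 5 for accessory PRC2, 8 to 10 for canonical PRC1, 15 to 16 for variant PRC1, 6 for opposing enzymes and 17 to 21 for developmental targets.

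The labels number the lines within each group but do not say that a number was shared. Deviations from the group means correlated between same-numbered lines at 0.01, 0.07 and 0.02 across 11115 genes, and the first control line correlated best with another number. With the replicate number as a block, 11801 genes and 5 core genes were called.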
